A study of Arabidopsis thaliana with 9 samples.

Results

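The genes described here are the mitotic cyclins, cyclin-dependent kinases and cytokinesis genes of Arabidopsis thaliana, 33 of the 33201 rows of the deposited expression table. They were chosen by locus, as a functional group: 9 A-type cyclins, 9 B-type cyclins, CDKA;1 and the 4 B-type kinases, the 2 CKS subunits, the 2 CDC20 genes, 3 Aurora kinases, and KNOLLE, HINKEL and MAP65-3. All 33 loci had a row of their own with a value above 0 at every time.

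The samples were roots of a transgenic XVE:PAN line in the Col-0 ecotype, collected after 0, 6 and 24 h of induction with 3 biological replicates per time. In an XVE line, β-estradiol releases an artificial activator that switches on the transgene, here PERIANTHIA (PAN), a bZIP transcription factor of the TGA family. Plants grew on MS medium with 1% sucrose and were moved to the same medium with 10 uM β-estradiol, with the 0 h group as the start of induction and a total growth time of 5 days in all groups. One label names whole root as the tissue, and another says that roots were cut some 0.5 cm from the tip. Neither a mock treatment nor plants without the transgene were analysed here, so the effects of PAN, of estradiol and of the time after transfer cannot be told apart. The promoter that drives the activator and the number of independent lines are not given in the sources used here.

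The table held 1 value per gene and time, already combined from the 3 replicates, and these values were read as FPKM (fragment counts scaled by transcript length and library size). The spread between replicates therefore could not be seen, and neither could any overlap between the groups. It entered only through the q-value, a p-value adjusted for multiple testing, that the authors' deposited table gives for each gene and pair of times. A gene was called higher or lower when that q-value was below 0.05 and the mean over the 3 times was at least 1 FPKM, which 17841 rows reached. Changes, given in log2 units, are differences of log2(FPKM + 1), a scale that understates the change of genes with low levels. PAN itself stood at 1.03, 688 and 385 FPKM at 0, 6 and 24 h, and it was called higher at both later times against 0 h.

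Mitosis in plants is driven by cyclin-dependent kinases (CDKs), which are active only when bound to a cyclin. A-type cyclins serve from S phase to the entry into mitosis, and B-type cyclins and the plant-specific B-type kinases serve from G2 to metaphase. CDC20 then directs the anaphase-promoting complex to destroy the cyclins, and the daughter cells are parted by a cell plate that is built by the phragmoplast. In a root these steps take place mainly in the meristem just behind the tip. Many genes of this phase carry the mitosis-specific activator element, whose core AACGG is bound by MYB3R transcription factors.

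Promoter windows of 5 members are printed here because they show both ends of what was found: 3 genes with repeated AACGG cores and 2 genes with none. Each runs 5′ to 3′ on the gene's own strand, from 250 bases before the annotated gene start through the first 50 bases of the gene. The sequences are from RefSeq, assembly TAIR10.1, whose nuclear chromosomes are those of the TAIR10 build named in the submitters' processing notes. Capitals mark AACGG or its reverse complement CCGTT. The windows lie at chr4:17624259-17624558 for the B-type cyclin CYCB1;1, chr1:7137779-7138078 for the B-type cyclin CYCB2;3 and chr1:2710951-2711250 for the syntaxin KNOLLE, all on the minus strand. Those of the Aurora kinase AUR3 at chr2:18749166-18749465 on the minus strand and of the kinase CDKA;1 at chr3:18071204-18071503 on the plus strand hold no such core.
CYCB1;1: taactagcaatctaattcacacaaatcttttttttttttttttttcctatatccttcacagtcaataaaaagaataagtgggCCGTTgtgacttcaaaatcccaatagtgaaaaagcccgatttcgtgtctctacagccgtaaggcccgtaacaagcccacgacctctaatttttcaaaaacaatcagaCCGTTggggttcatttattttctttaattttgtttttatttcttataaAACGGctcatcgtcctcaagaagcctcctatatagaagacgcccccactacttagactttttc
CYCB2;3: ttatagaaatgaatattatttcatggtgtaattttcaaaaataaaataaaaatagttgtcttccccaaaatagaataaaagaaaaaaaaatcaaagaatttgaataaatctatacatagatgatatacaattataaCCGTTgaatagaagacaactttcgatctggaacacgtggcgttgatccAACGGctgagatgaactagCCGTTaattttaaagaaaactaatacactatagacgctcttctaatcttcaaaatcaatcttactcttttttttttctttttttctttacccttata
KNOLLE: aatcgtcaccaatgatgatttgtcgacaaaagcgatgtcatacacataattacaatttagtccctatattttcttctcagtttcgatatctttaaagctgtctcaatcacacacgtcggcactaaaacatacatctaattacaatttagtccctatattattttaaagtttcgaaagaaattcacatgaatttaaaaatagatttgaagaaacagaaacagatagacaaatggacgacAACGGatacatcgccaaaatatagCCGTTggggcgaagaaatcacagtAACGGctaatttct
AUR3: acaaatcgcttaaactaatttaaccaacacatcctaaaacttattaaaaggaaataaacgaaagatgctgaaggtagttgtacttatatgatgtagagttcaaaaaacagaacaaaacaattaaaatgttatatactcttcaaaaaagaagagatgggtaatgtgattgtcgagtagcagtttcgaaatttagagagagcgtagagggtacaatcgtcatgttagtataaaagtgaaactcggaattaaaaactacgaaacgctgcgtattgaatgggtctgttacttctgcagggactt
CDKA;1: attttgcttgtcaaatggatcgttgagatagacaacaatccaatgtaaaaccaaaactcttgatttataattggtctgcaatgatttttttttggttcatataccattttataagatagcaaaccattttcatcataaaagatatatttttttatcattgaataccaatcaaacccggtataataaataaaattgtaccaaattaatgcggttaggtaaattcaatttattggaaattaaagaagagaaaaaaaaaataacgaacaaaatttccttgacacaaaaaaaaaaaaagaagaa

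The mitotic genes with enough signal stood higher at 24 h than at 0 h in 30 of 31 cases, against 52.4% of all 17841 genes. Of the 33 members, 31 had a mean of at least 1 FPKM, and each of those 31 was at 1.23 FPKM or more at every time. For 24 h against 0 h, 24 of the 31 were called higher and 0 lower. Over all 17841 genes, 23.8% were called higher and 23.8% lower, or 47.7% in either direction. The median change of the 31 members was 0.90 on the log2(FPKM + 1) scale, against 0.05 over all genes. As a plain ratio of levels, the median member stood 2.02 times as high at 24 h as at 0 h, with a range of 0.891 to 4.93. The levels of the 33 genes summed to 277, 344 and 525 FPKM at 0, 6 and 24 h, which is 0.0296%, 0.0400% and 0.0530% of the summed FPKM of the whole table. In bulk root tissue, more dividing cells and more messenger RNA per dividing cell cannot be told apart.

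Part of the difference was present at 6 h. Against 0 h, 6 members were called higher at 6 h and 0 lower. Over all genes in that comparison, 3.98% were called higher and 7.35% lower, or 11.3% in either direction. The median change was 0.37, against 0.02 over all genes. Between 24 h and 6 h, 16 members were called higher and 0 lower, where 19.6% of all genes were called higher and 19.8% lower, or 39.4% in either direction. The median change was 0.58, against 0.03 over all genes. With the adjustment made within the comparison of 6 h and 0 h alone, 2 of the 6, CYCB2;3 and AUR3, stayed below 0.05, while CYCB1;4, CDKB2;1, CDKB2;2 and HINKEL did not. The 3 comparisons share their times and are not independent of each other. Unadjusted p-values, recovered from the q-values in the authors' deposited table, were below 0.05 with a positive change for 13 members at 6 h against 0 h. The number was 28 at 24 h against 0 h and 18 when 24 h was set against 6 h, and it was 0 in each comparison for negative changes. The share of all genes at this looser limit is not given here, so these counts have no background beside them.

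**Figure D1:**
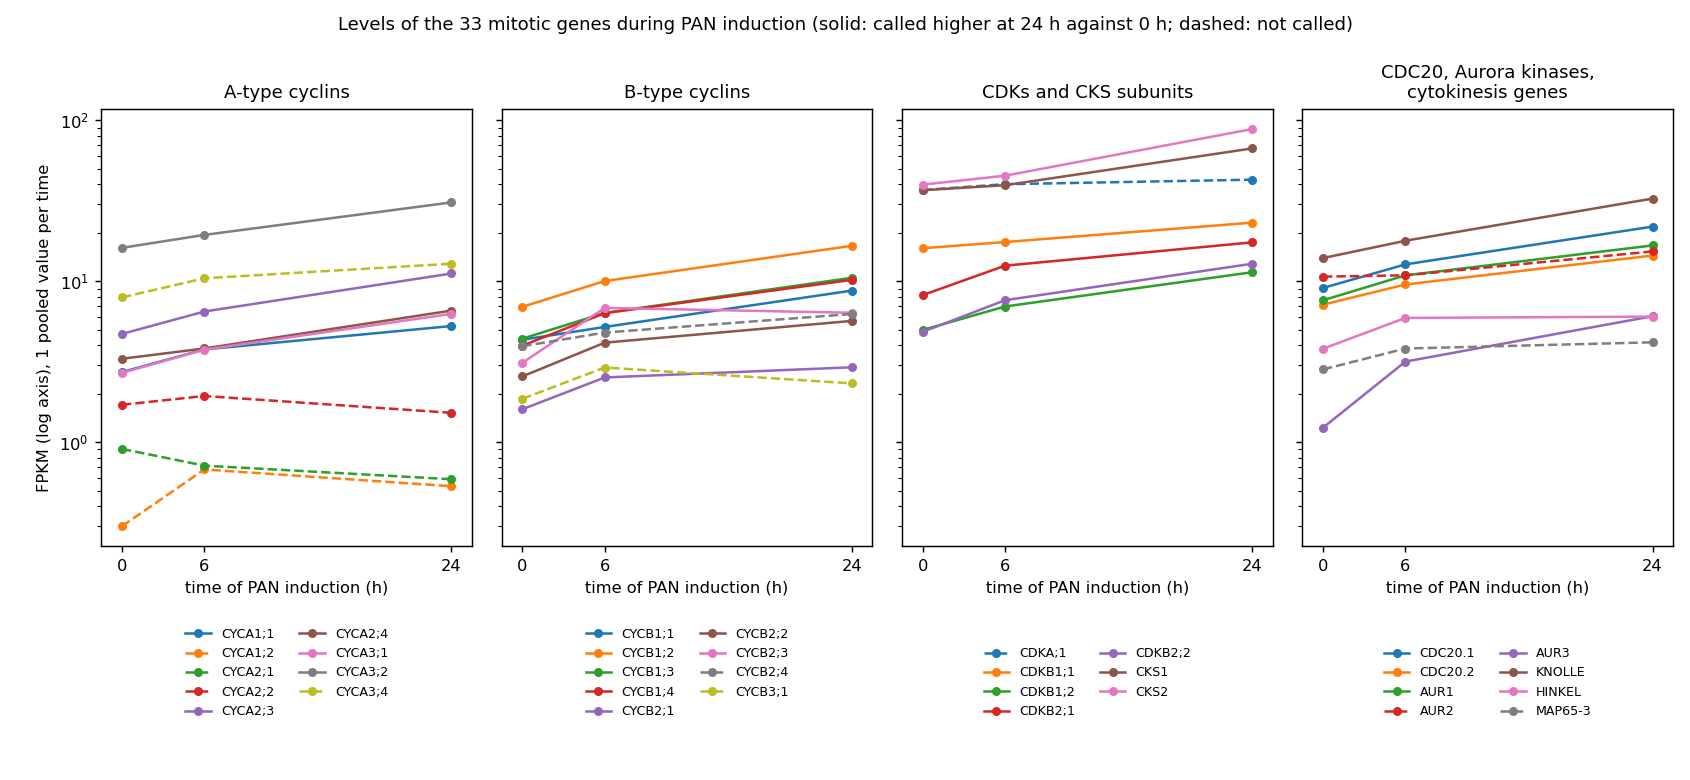
Level of each of the 33 genes in FPKM (log axis) against the time of PAN induction in hours (0, 6 and 24), 1 pooled value per gene and time, so no error bars can be drawn. Solid lines mark genes called higher at 24 h against 0 h; CKS2 has the highest level at each time and CYCA1;2 the lowest, and AUR3 climbs through the order between 0 and 24 h.

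Among the A-type cyclins, 5 of the 7 with enough signal were called higher at 24 h against 0 h. CYCA1;1 (AT1G44110, chromosome 1, 16774765 to 16777352, TAIR10.1) stood at 2.72, 3.77 and 5.26 FPKM at 0, 6 and 24 h. Its level was highest at 24 h and intermediate at 6 h. The change at 24 h against 0 h was 0.75, with q = 0.00624 in the authors' deposited table. CYCA2;3, known to hold back endoreduplication together with CDKB1;1, stood at 4.70, 6.48 and 11.2 FPKM and rose by 1.09 log2 units at 24 h against 0 h. CYCA2;4 rose by 0.82 log2 units, CYCA3;1 by 0.98 and CYCA3;2 by 0.90 in the same comparison. CYCA3;2 had the highest level of the class at each time, 16.1, 19.4 and 30.9 FPKM.

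The remaining A-type cyclins were not called in any comparison. CYCA3;4 stood at 7.93, 10.4 and 12.8 FPKM, with a change of 0.63 at 24 h against 0 h and q = 0.122 in the authors' deposited table. CYCA2;2 stood at 1.71, 1.93 and 1.52 FPKM, and it was the only one of the 31 members with a negative change, -0.10, at 24 h against 0 h (q = 0.772 in the authors' deposited table). CYCA1;2, which is best known for its role in male meiosis, and CYCA2;1 were below the minimum mean. They stood at 0.301, 0.677 and 0.532 FPKM and at 0.907, 0.714 and 0.588 FPKM at 0, 6 and 24 h. Both are listed with a q-value of 1 in all comparisons of the authors' deposited table. No A-type cyclin was called at 6 h against 0 h.

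Among the 9 B-type cyclins, 7 were called higher at 24 h against 0 h, 2 of them already at 6 h. CYCB1;1 (AT4G37490, chromosome 4, 17621886 to 17624308), the cyclin whose promoter is widely used to mark dividing root cells, stood at 4.33, 5.19 and 8.74 FPKM at 0, 6 and 24 h. Its pooled level was highest at 24 h, and the level at 6 h was nearer to that at 0 h. The changes were 0.22 at 6 h against 0 h (q = 0.491 in the authors' deposited table), 0.87 at 24 h against 0 h (q = 0.000666) and 0.65 when 24 h was set against 6 h (q = 0.0117). All 4 CYCB1 genes were called higher at 24 h, both against 0 h and against 6 h. CYCB1;2 stood at 6.93, 10.0 and 16.6 FPKM, the highest of the B-type cyclins at each time. CYCB1;3 rose by 1.09 log2 units at 24 h against 0 h. CYCB1;4 stood at 3.97, 6.33 and 10.2 FPKM and was the CYCB1 gene already called at 6 h against 0 h, with a change of 0.56 and q = 0.0311 in the authors' deposited table.

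Of the 4 CYCB2 genes, 3 were called higher at 24 h against 0 h, and 0 against 6 h. CYCB2;3 stood at 3.11, 6.82 and 6.36 FPKM at 0, 6 and 24 h. Both later pooled levels were above the level at 0 h and lay nearer to each other than to it. Its change at 6 h against 0 h was 0.93, the largest of all members in that comparison on the log2(FPKM + 1) scale, and its q-value was 0.000358, the smallest that the authors' deposited table holds. From 6 h on its change was -0.09 (q = 0.808 in the authors' deposited table). CYCB2;1 stood at 1.60, 2.52 and 2.92 FPKM and CYCB2;2 at 2.56, 4.15 and 5.66 FPKM. Both were called at 24 h against 0 h, with changes of 0.59 and 0.91. A difference between CYCB1 and CYCB2 genes was not tested, since no value per replicate was given.

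CYCB2;4 and CYCB3;1 were called in none of the comparisons. CYCB2;4 stood at 3.94, 4.79 and 6.25 FPKM, a change of 0.55 at 24 h against 0 h, with q = 0.0502 in the authors' deposited table, just above the limit. CYCB3;1, a B-type cyclin of a class with 1 gene here, stood at 1.86, 2.91 and 2.32 FPKM, highest at 6 h, with changes of 0.45 at 6 h and 0.21 at 24 h against 0 h (q = 0.0916 and 0.472 in the authors' deposited table).

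Among the kinases, CDKA;1 was not called and the B-type kinases were. CDKA;1 (AT3G48750, chromosome 3, 18071454 to 18074641), which acts throughout the cell cycle, stood at 36.8, 40.0 and 42.7 FPKM at 0, 6 and 24 h. These are among the highest levels of the 33 genes and lie close together. Its change at 24 h against 0 h was 0.21 with q = 0.414 in the authors' deposited table, and it was called in no comparison. All 4 B-type kinases, whose messenger RNA is known to peak from G2 to mitosis, rose at 24 h against 0 h. CDKB1;1 stood at 16.0, 17.5 and 23.1 FPKM and rose by 0.50 log2 units, and CDKB1;2 stood at 4.98, 6.96 and 11.4 FPKM and rose by 1.05.

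The CDKB2 kinases were called at 6 h as well. CDKB2;1 stood at 8.19, 12.5 and 17.4 FPKM, with a change of 0.55 at 6 h (q = 0.0375 in the authors' deposited table) and 1.00 at 24 h against 0 h. CDKB2;2 stood at 4.84, 7.61 and 12.8 FPKM. Its change was 0.56 at 6 h (q = 0.0436 in the authors' deposited table) and 1.24 at 24 h against 0 h, the second largest of all members on this scale. In both genes the level was higher at each later time, and the rise at 24 h against 6 h passed the limit for CDKB2;2 only (q = 0.00868, against 0.0747 for CDKB2;1, in the authors' deposited table).

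The CKS subunits, small proteins that dock the kinase to its substrates, both rose at 24 h, against 0 h and against 6 h. CKS1 (AT2G27960) stood at 36.7, 39.5 and 66.8 FPKM and CKS2 (AT2G27970) at 39.8, 45.2 and 88.1 FPKM at 0, 6 and 24 h. Neither was called at 6 h against 0 h, with changes of 0.10 and 0.18. For 24 h against 6 h the changes were 0.74 and 0.95, with q = 0.000951 and 0.000358 in the authors' deposited table. With the length trend removed, 0.18 (CKS1) and 0.29 (CKS2) remained of these. Against 0 h the changes at 24 h were 0.85 and 1.13, with q = 0.000666 and 0.000358 in the authors' deposited table. The genes are neighbours on chromosome 2, CKS1 at 11910569 to 11911802 and CKS2 at 11912151 to 11913425, and they have the shortest transcripts of all members.

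Both CDC20 genes, activators of the anaphase-promoting complex, rose by 24 h. CDC20.1 (AT4G33270) stood at 9.07, 12.7 and 21.8 FPKM, with a change of 1.18 at 24 h against 0 h, the third largest of all members on this scale. CDC20.2 stood at 7.14, 9.54 and 14.4 FPKM, with a change of 0.92. Neither was called at 6 h against 0 h, with q = 0.0751 and 0.174 in the authors' deposited table. These neighbours on chromosome 4 share 20.6% (CDC20.1) and 22.4% (CDC20.2) of the 100-base stretches of their longest transcripts. How reads that match both were counted is not given in the sources used here, so the split of reads between them is uncertain.

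AUR3 (AT2G45490, chromosome 2, 18747509 to 18749215), an Aurora kinase that phosphorylates histone H3 at mitosis, had the largest change of all members at 24 h against 0 h. It stood at 1.23, 3.16 and 6.06 FPKM at 0, 6 and 24 h. Its pooled level at each time was above that of the time before, and the level at 24 h was 4.93 times that at 0 h. By the ratio of levels, its increase at 6 h, 2.57 times, was also the largest of all members. The changes were 0.90 at 6 h against 0 h (q = 0.0108 in the authors' deposited table), 1.66 at 24 h against 0 h (q = 0.000358) and 0.76 for the step between 6 and 24 h (q = 0.0211). Its order among the 33 members by level moved to 24 at 24 h, against 31 at 0 h.

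The other Aurora kinases, which are found on spindle microtubules and at the cell plate, had higher levels and smaller changes. AUR1 (AT4G32830) stood at 7.61, 10.9 and 16.7 FPKM and rose by 1.04 log2 units at 24 h against 0 h. AUR2 stood at 10.7, 10.9 and 15.3 FPKM and was not called, with changes of 0.02 at 6 h and 0.48 at 24 h against 0 h (q = 0.952 and 0.0674 in the authors' deposited table). The sign of the 6 h change of AUR2 turned under quantile normalization, -0.0058, and after removal of the length trend, -0.0069.

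Among the cytokinesis genes, KNOLLE and HINKEL were called higher at 24 h against 0 h and MAP65-3 was not called. KNOLLE (AT1G08560, chromosome 1, 2709525 to 2711000), the syntaxin that fuses vesicles into the cell plate, stood at 13.9, 17.8 and 32.6 FPKM at 0, 6 and 24 h. Its pooled level at 24 h was above both earlier ones. Its changes were 0.34 at 6 h against 0 h (q = 0.218 in the authors' deposited table), 1.17 at 24 h against 0 h and 0.84 against 6 h (q = 0.000358 for both). HINKEL (AT1G18370), a kinesin that recruits a kinase cascade to the phragmoplast, stood at 3.80, 5.91 and 6.02 FPKM. Its pooled levels at 6 and 24 h were similar and above the level at 0 h, with changes of 0.52 (q = 0.0188 in the authors' deposited table) and 0.55 (q = 0.0129) against 0 h. The change of HINKEL at 24 h against 6 h was 0.02, with a sign that turned to -0.013 under median-of-ratios scaling. With the length trend removed, the changes at 24 h against 6 h were 0.60 for KNOLLE, 0.39 for HINKEL and 0.33 for MAP65-3. MAP65-3 (AT5G51600), which bundles microtubules at the middle of the phragmoplast, stood at 2.83, 3.82 and 4.17 FPKM and was not called, with changes of 0.33 at 6 h and 0.43 at 24 h against 0 h (q = 0.201 and 0.0820 in the authors' deposited table).

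**Figure D2:**
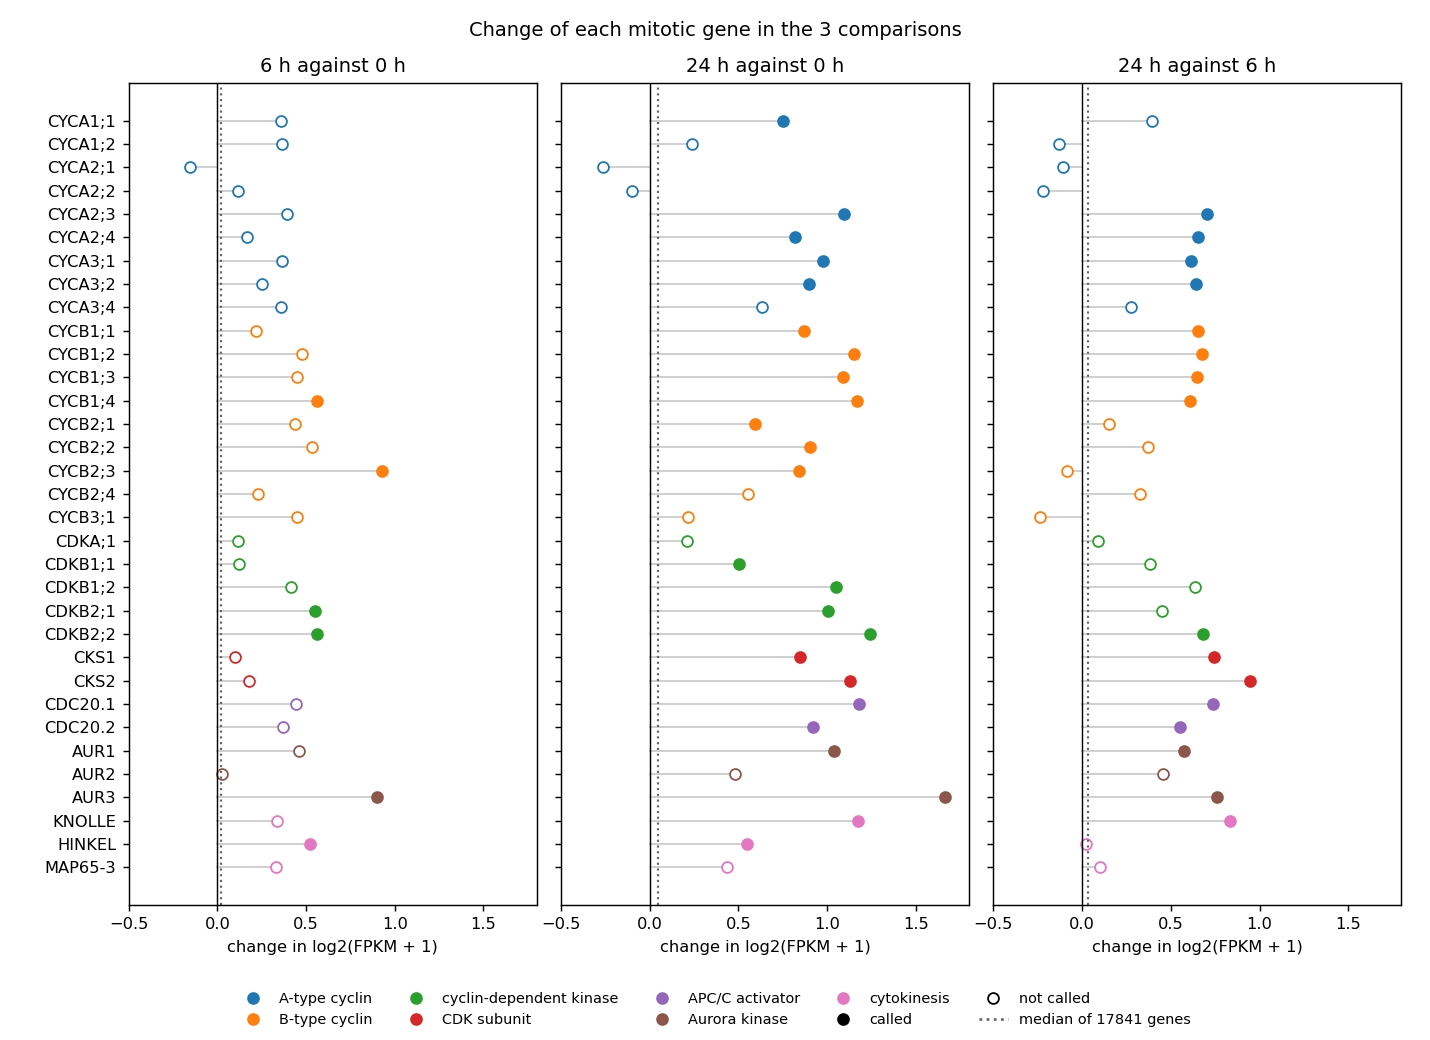
Change of each of the 33 genes in log2(FPKM + 1) for 6 h against 0 h, 24 h against 0 h and 24 h against 6 h; filled points are called, open points are not, colours mark the roles and the dotted line is the median of 17841 genes. All filled points lie right of 0, from 6 at 6 h to 24 at 24 h against 0 h, and no trend with transcript length was removed from the values drawn.

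Some transcripts overlap another gene. Of the 33 members, 18 share no 100-base stretch with another gene's longest transcript and have no exonic base within another gene. Of these, 16 had a mean of at least 1 FPKM, and 11 of the 16 were called higher at 24 h against 0 h, with a median change of 0.78. CYCB1;4 and HINKEL, 2 of the 16, held the call for 6 h against 0 h. The share of all genes in that comparison was 11.3% in either direction and 3.98% for higher. Both members lost the call with the adjustment made within that comparison alone. KNOLLE shares 28.4% of its stretches with AT1G08550 on the opposite strand, which stood at 0.998, 1.44 and 2.30 FPKM and so far below KNOLLE at each time. AUR1 shares 13.5% with AT4G32840 at 5.51, 7.59 and 8.97 FPKM, and AUR2 shares 34.1% with AT2G25890 at 2.096, 1.461 and 1.687 FPKM. For AUR3, 126 of its exonic bases lie within the opposite-strand gene AT2G45480, which stood at 1.87, 1.51 and 3.49 FPKM. CDKB1;2 shares 8.96% with AT2G38630 and CDKB2;2 shares 7.19% with AT1G20925, both on the opposite strand. For CKS2, 67 of its exonic bases lie within the gene AT2G27980 on the same strand. CYCB2;3 shares 13.7% with AT1G20590, which is listed at 0 at all times. The library kit marks the strand, but whether the counting used it is not given in the sources used here, so reads from these overlaps may have been split.

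Transcript length moved with the change across the whole table. In the running median over 50 length bins, short transcripts had positive and long ones negative changes at 24 h against 0 h. The members' longest transcripts span 762 to 3474 bases with a median of 1742, against a median of 1721 over all genes. In that span lie 15291 genes, and 24.7% of them had a call of higher and 22.6% of lower at 24 h against 0 h, with a median change of 0.07. With the length trend removed, the members' median change was 0.80 at 24 h against 0 h and 0.41 against 6 h. CKS2, at 762 bases, lay where the trend itself was 0.67, so 0.45 of its change of 1.13 remained, and for CKS1, at 857 bases, 0.28 of 0.85 remained. HINKEL, the longest at 3474 bases, lay where the trend was -0.38, and its change of 0.55 became 0.93. AUR3 kept 1.33 of its 1.66 and KNOLLE 0.95 of its 1.17, while CDKA;1 turned to -0.030. The part of transcript length in these results was not tested further.

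**Figure D3:**
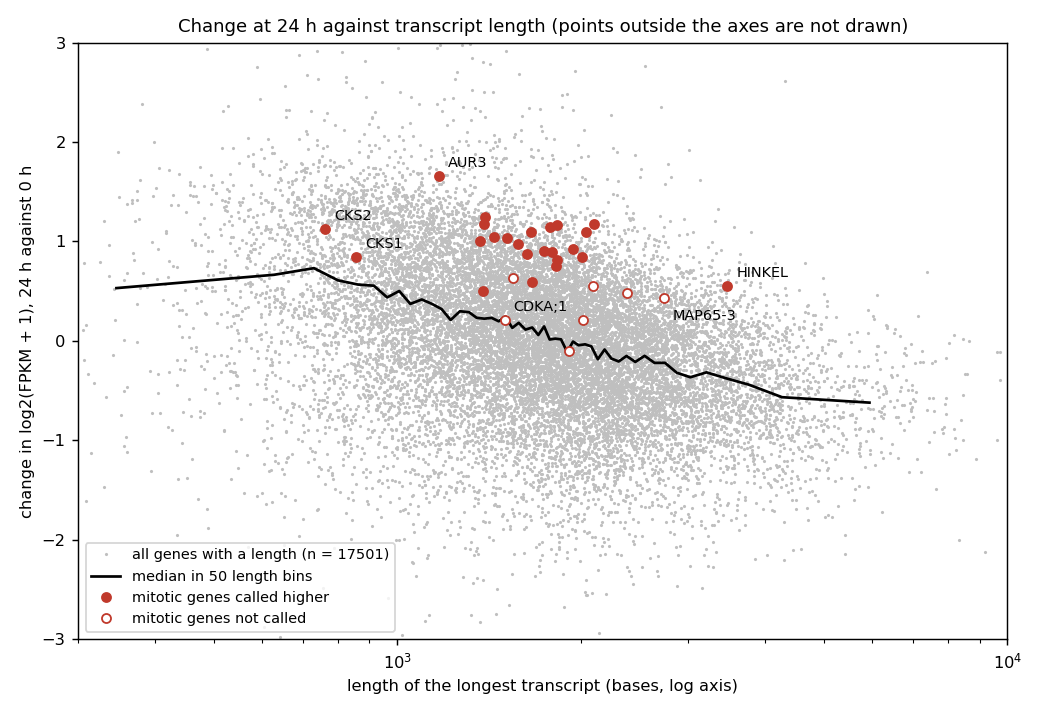
Change in log2(FPKM + 1) at 24 h against 0 h (vertical axis) over the length of the longest transcript in bases (log axis) for 17501 genes in grey, with the median of 50 length bins as a line and the mitotic genes in red (filled when called higher). The line falls with length, and the called members lie above it, CKS1 and CKS2 where it is high and HINKEL where it is low.

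The promoter windows were searched for 2 short motifs. The members were chosen by function, and many genes of this phase are known to carry AACGG, so its share among them is no independent finding. AACGG, on either strand, occurs in the window of 20 of the 33 members (60.6%), against 24.6% of the windows of 27528 other protein-coding genes. At least 2 matches occur in 14 members (42.4%), against 4.84% of the other genes. By role, the core is in 8 of 9 B-type cyclins, 7 of them with at least 2 matches, in all 3 cytokinesis genes and in 4 of 9 A-type cyclins, but in 1 of 5 kinases. In CYCB1;1 the matches begin at positions -168, -61 and -13 relative to the gene start. TGACG, the core bound by TGA factors such as PAN, occurs on either strand in 7 members (21.2%), against 23.02% of the other genes. No match of one motif overlapped a match of the other, or of its own kind, in the members' windows. Such matches are descriptions of the letters and not of binding.

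Members without the core were called as well. Among the 31 members with a mean of at least 1 FPKM, the 12 with at least 2 AACGG matches had a median change of 0.91 at 24 h against 0 h, and 11 of them were called higher. The 6 with 1 match had a median of 0.79, with 4 called, and the 13 with no match had a median of 0.85, with 9 called. AUR3, with the largest change, and CDKA;1, which was not called, both have windows with no AACGG.

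**Figure D4:**
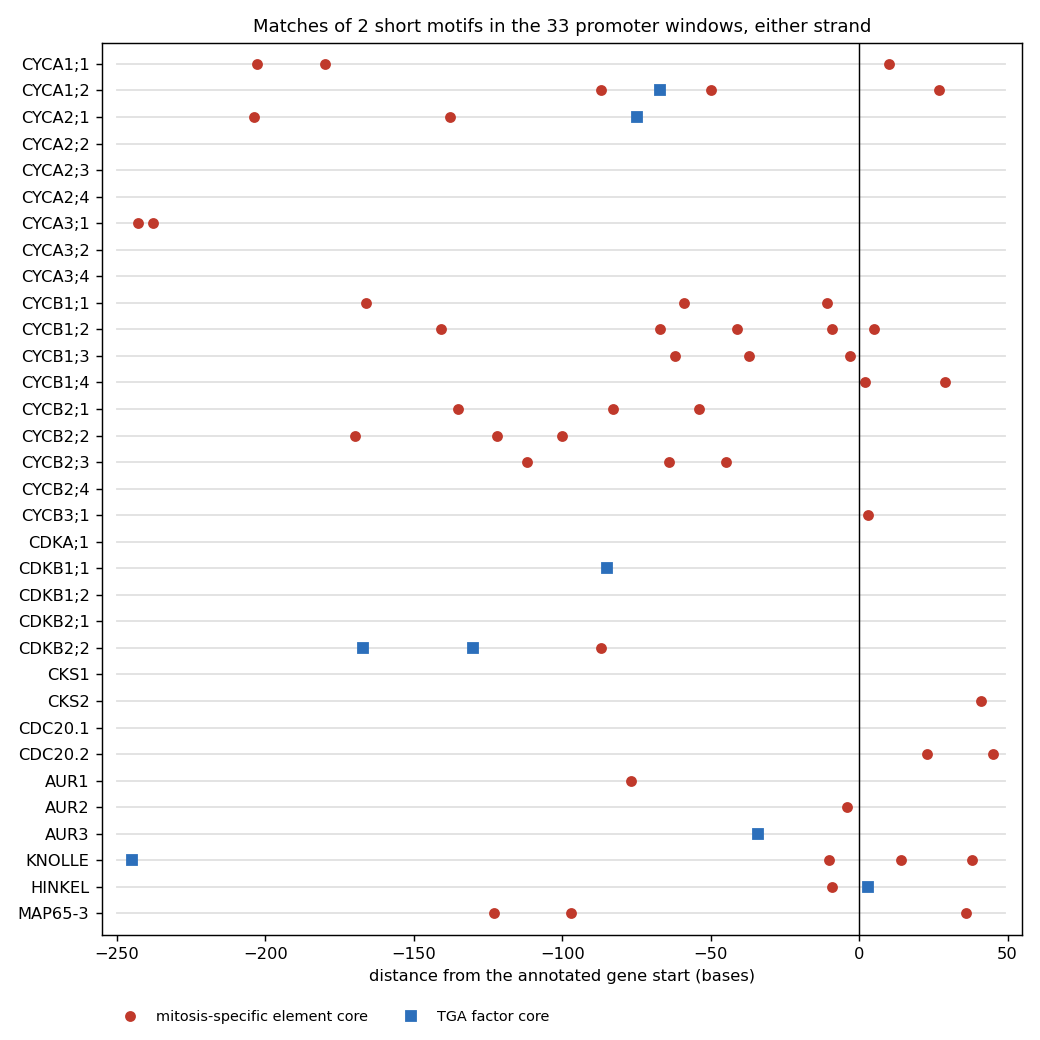
Position of each match of the mitosis-specific element core (red circles) and the TGA factor core (blue squares), on either strand, in the promoter windows of the 33 genes; the horizontal axis is the distance in bases from the annotated gene start. Circles appear in 20 windows, among them 8 of the 9 B-type cyclins; squares appear in 7.

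Other genes of the mitotic pathway were called in both directions. Of 50 further genes of mitosis and cytokinesis, all with a mean of at least 1 FPKM, 19 were called higher and 6 lower at 24 h against 0 h, with a median change of 0.36. These 25 called genes of 50 stand beside 47.7% called over all genes, and the median became 0.56 with the length trend removed. GIP1, a small partner of γ-tubulin complexes, stood at 7.18, 8.45 and 26.4 FPKM and rose by 1.74 log2 units at 24 h against 0 h. CENH3, the centromeric histone, stood at 3.03, 5.69 and 12.5 FPKM and also rose by 1.74 log2 units. PANS1, which protects centromeric cohesion, rose by 1.64 log2 units. The 3 largest falls were in the kinase ANP1, which fell by 1.08 log2 units, in KEULE, the Sec1-type partner of KNOLLE, which fell by 0.73, and in the transcription factor MYB3R1, which fell by 0.57. KEULE stood at 63.7, 60.8 and 38.0 FPKM, so it was lowest at the time when KNOLLE was highest. For 6 h against 0 h, 5 of the 50 were called higher and 0 lower. Over all genes, 3.98% were called higher and 7.35% lower in that comparison, or 11.3% in either direction. The 5 were MYB3R4, which activates genes with the AACGG core, the kinesin POK2, the kinase TIO, the microtubule protein EDE1, and CENH3. At 24 h against 0 h, EDE1 and CENH3 were called higher, and MYB3R4, POK2 and TIO were not called. The adjustment within the comparison alone is not given here for these genes.

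Genes of other phases of the cycle were also measured. Of 16 DNA replication genes, 7 passed the q-value limit with a positive change at 24 h against 0 h, and 0 with a negative one. Their median change was 0.40, and 14 of the 16 had a positive change, called or not. The lowest change was -0.40. TSO2, a small subunit of ribonucleotide reductase, rose by 1.25 log2 units, and the sliding clamp genes PCNA2 and PCNA1 rose by 1.22 and 1.21. Of 10 D-type cyclins, which act at the entry into the cycle, 8 had a mean of at least 1 FPKM, and 2 of these were called higher and 1 lower. The median change of the 8 was 0.48, which became 0.40 with the length trend removed. CYCD3;2 rose by 0.99 log2 units and CYCD3;3 by 0.75, and CYCD1;1 fell by 0.74. Of 13 CDK inhibitors, 12 had a mean of at least 1 FPKM, and 5 were called higher and 0 lower, with a median change of 0.48 that became 0.09 with the length trend removed. Beside the counts of these lists stands a share of 47.7% of all genes with a call in either direction. A positive change made up 23.8% of all genes and a negative one 23.8%, so the lists do not stand out by their number of calls. KRP3 rose by 1.39 log2 units, KRP6 by 1.37 and SMR1 by 1.22. KRP6 stood at 4.73, 13.1 and 13.8 FPKM and was already called at 6 h, while KRP2 was called lower at 6 h. By recovered unadjusted p-values below 0.05, 7 DNA replication genes were higher and 1 lower at 24 h against 0 h. The counts were 5 higher and 2 lower for D-type cyclins, and 6 higher and 0 lower for CDK inhibitors. The share of all genes at this looser limit is not given here.

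Markers of other root cell types moved in the same interval. Of 9 root hair markers, 0 were called higher and 8 lower at 24 h against 0 h, and their summed level was 3306, 2587 and 1937 FPKM at 0, 6 and 24 h. RHD2, an NADPH oxidase of growing root hairs, fell by 2.02 log2 units, COBL9 by 1.63 and RSL4 by 1.58. Of 7 endodermis markers, 5 were called lower and 0 higher at 24 h against 0 h, with sums of 2285, 1694 and 1605 FPKM. Their median change of -0.48 became -0.96 with the length trend removed. The Casparian strip genes CASP5, CASP4 and CASP1 fell by 0.61, 0.56 and 0.56 log2 units. CASP5 was lowest at 6 h. In the authors' deposited table its log2 fold change was -1.34 at 6 h against 0 h (q = 0.000358). At 24 h against 6 h it was 0.73 (q = 0.00223). Of 4 root cap markers, 3 had a mean of at least 1 FPKM, and all 3 were called lower. The other, FEZ, was below that mean and not called, with a log2 fold change of 1.11 in the authors' deposited table at 24 h against 0 h. BRN1 fell by 1.32 log2 units, BRN2 by 1.27 and SMB by 0.88, and the sums were 94.7, 89.3 and 38.5 FPKM.

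Markers of the stem cell niche at the root tip went the other way. Of 6, 5 had a mean of at least 1 FPKM, and 4 of these were called higher and 0 lower at 24 h against 0 h, with sums of 27.3, 30.4 and 43.7 FPKM. In that comparison 23.8% of all genes were called higher. BBM stood at 0.281, 0.775 and 2.77 FPKM, reached the minimum mean only through its 24 h level, and rose by 1.56 log2 units. PLT3 rose by 1.00 log2 units and PLT1 by 0.78. Of 7 xylem markers, 5 had a mean of at least 1 FPKM and 0 were called in any comparison, with sums of 47.5, 45.9 and 50.4 FPKM. Only 1 of 5 phloem markers reached that mean, and it was not called. The phloem sums were 2.50, 2.34 and 3.83 FPKM, and NEN4 is listed at 0 at 0 h. No xylem or phloem gene with that mean passed a recovered unadjusted p of 0.05 either. Below that mean, the phloem marker APL had a log2 fold change of 1.75 at 24 h against 0 h (q = 0.0192), both in the authors' deposited table. The part of a changed share of root tissues in the result for the mitotic genes was not tested.

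**Figure D5:**
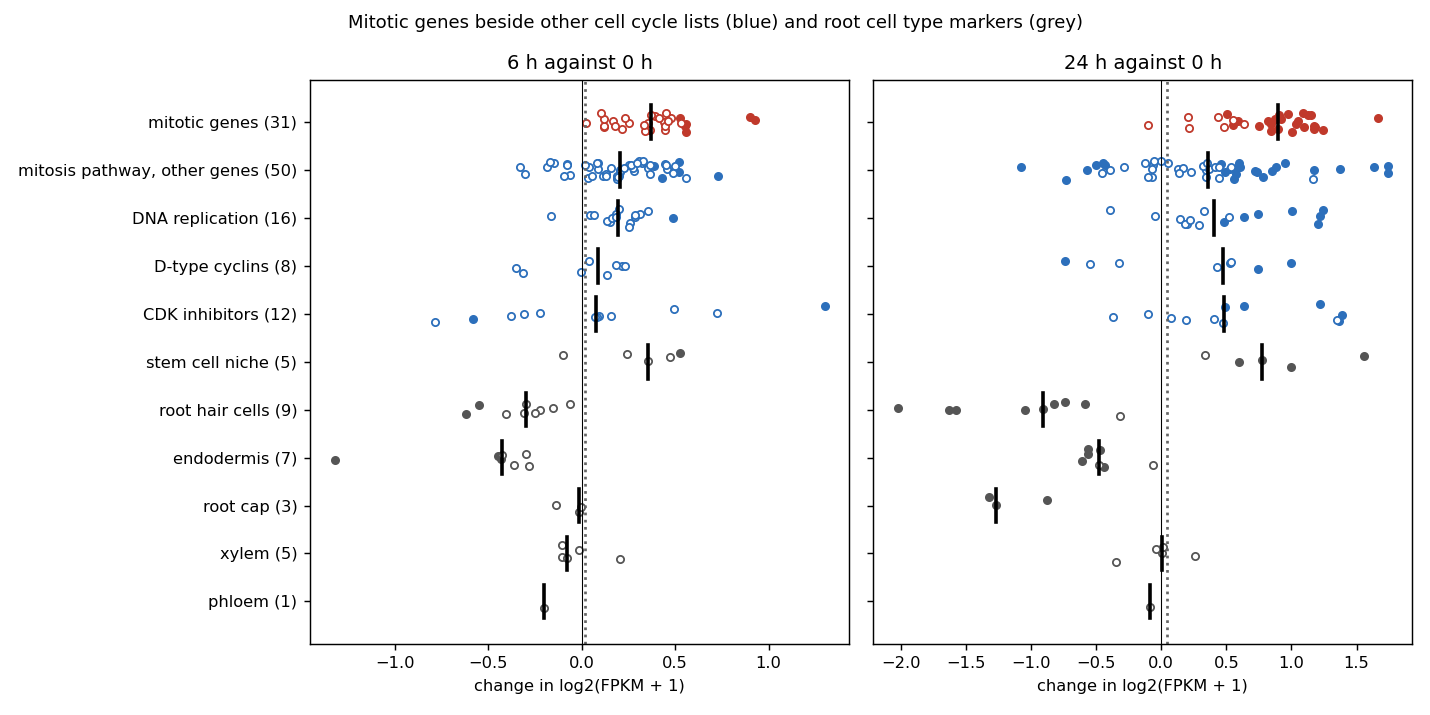
Change in log2(FPKM + 1) of each gene with a mean of at least 1 FPKM, for the mitotic genes (red), other cell cycle lists (blue) and markers of root cell types (grey), for the 6 h and the 24 h group, each against 0 h; the number of genes is in brackets, filled points are called, black bars are list medians and the dotted line is the median of 17841 genes. In the 24 h panel the median is 0.90 for the mitotic genes, 0.78 for stem cell niche markers, -0.91 for root hair markers and -1.27 for root cap markers.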

How the data were processed

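Messenger RNA was measured in 9 root samples, 3 biological replicates at each of 3 times, grouped by their titles. Directional libraries were made from poly(A) RNA and sequenced with single-end reads of 100 bp, per the labels' protocols. The submitters' processing notes name TopHat2 2.0.13, Cufflinks 2.1.1, Cuffdiff and the build TAIR10, with no role given for each. The annotation and the test are not given in the sources used here.

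The authors deposited 1 value per gene and time, read here as FPKM from the values and from the tools named in the submitters' processing notes, since the header gives no unit. The deposited table also holds the authors' log2 fold change and a q-value for each pair of times, per the file headers. With no value per replicate, depth per sample is unknown, and no model across replicates could be fitted. Of the rows, 282 join more than 1 locus. Summed FPKM was 933264, 860568 and 989899 at 0, 6 and 24 h, and 17431, 17603 and 17897 rows had at least 1 FPKM.

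The deposited q-values fit a single Benjamini-Hochberg adjustment over the 53530 tests whose q-value is below 1. The smallest, 0.000358, is shared by 7475 tests and corresponds to a p-value of 5e-05, so genes at it have no order. Undoing the adjustment gave p-values of which 99.9981% were a multiple of 5e-05 to within 0.001 of their size. Changes used a pseudocount of 1 on the log2 scale and a minimum mean of 1.

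Lengths, neighbours and promoters came from the RefSeq assembly TAIR10.1, which matched all 33 members. Lengths were available for 17501 of the 17841 rows used. Python 3.11.15, NumPy 2.4.6 and pandas 2.3.3 were used, and the code was tested on simulated data. Members and gene lists were chosen with earlier results of these data known. Named in full were the members with the 3 largest rises among those called at 24 h against 0 h (none fell), those called at 6 h against 0 h, those never called, CDKA;1, CYCB1;1, KNOLLE, HINKEL, MAP65-3 and the first of each role. From each other list, the called genes with up to 3 largest rises and falls at 24 h against 0 h were named. Genes of these lists called at 6 h were named after their values were seen.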

Additional observations from a re-analysis of the deposited data

How the results depend on the processing

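No paired analysis was possible because each time has only 1 pooled value per gene. For the same reason the planned fit with a replicate block and the planned fits that leave out a replicate were not run. The counts called at 24 h against 0 h stayed within 1.5 times of 24 under the other low-value filters, a q-value limit of 0.01, adjustment within the comparison, single-locus rows, a kept sign after removal of the length trend and a minimum change of 1 by the authors' log2 fold change. With a minimum change of 1 on the log2(FPKM + 1) scale the count was 12, and among the 18 members with no shared stretch or overlap it was 11. The count of 6 at 6 h against 0 h became 1 at a q-value limit of 0.01, 2 with adjustment within the comparison (CYCB2;3 and AUR3), 0 with the minimum change of 1, and 2 both by the authors' log2 fold change and among the members with no shared stretch or overlap. The count of 16 at 24 h against 6 h became 9 at a q-value limit of 0.01, and 0 with either minimum change, and 7 among the members with no shared stretch or overlap.

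The median change stayed positive under every alternative computed. Taken first for 6 h and then for 24 h against 0 h, and last for 24 h against 6 h, it was 0.45, 1.00 and 0.61 with a pseudocount of 0.1. By the authors' log2 fold change it was 0.47, 1.01 and 0.62, with quantile normalization 0.34, 0.86 and 0.59, and with median-of-ratios scaling 0.37, 0.85 and 0.54. With the length trend removed it was 0.36, 0.80 and 0.41, with no filter on low values 0.37, 0.87 and 0.55, and with a minimum mean of 5 it was 0.39, 1.00 and 0.64. The sign of a single member's change turned only for AUR2 at 6 h against 0 h (-0.0058 with quantile normalization, -0.0069 with the length trend removed), for CDKA;1 with the length trend removed (-0.030 at 24 h against 0 h and -0.12 against 6 h) and for HINKEL at 24 h against 6 h with median-of-ratios scaling (-0.013). None of these changes was called, and the cause was not tested.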
